A study of Mus musculus with 8 samples.

Results

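The transcriptional response to the MET inhibitor capmatinib was measured in NF1-MET;sgP53 cells, a mouse line of malignant peripheral nerve sheath tumour (MPNST) in which *Trp53*, the gene of the tumour suppressor p53, was targeted. It rests on 4 of the 8 RNA-seq libraries of the study: 2 from cells given the solvent DMSO (vehicle) and 2 from cells given 100 nM capmatinib, both for 24 h in medium with serum. The cells of all 4 libraries carry the genotype *Nf1* fl/ko; lox-stop-lox MET tg/+; Plp-creERT tg/+ and the *Trp53* knockout. The study also reports a spontaneous deletion of *Cdkn2a* in the NF1-MET line from which they derive. Plates, extraction dates and library batches are not given in the sources used here, so such differences between the treatments cannot be told apart from capmatinib. The knockout was made in the NF1-MET line with a lentiviral CRISPR vector that also conferred resistance to puromycin, and the selected pool is a single line, so its 2 libraries per treatment are replicates of treatment and not of genotype. The labels call the samples biological replicates, and by the protocol each treatment was given to duplicates of plated cells, so p-values measure the spread between these libraries, which may be partly technical. The other 4 libraries, from NF1-MET cells under the same treatments, entered the count threshold, the comparison of *Trp53* levels and the test of whether a response differed between the lines. The study also made an empty-vector control line. The labels name the comparison line NF1-MET, with sample codes that begin with SEVV and SEVC and are not explained, so whether it carries the vector is not known here. Genes were described where 2 or more of all 8 libraries held 10 counts or more, which left 14497 genes. At this threshold, the 205 genes whose second-highest count was exactly 10 summed to a median of 27 counts over the 4 NF1-MET;sgP53 libraries, and the 231 genes just outside it, at 9, summed to a median of 24.

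MET is the receptor tyrosine kinase for hepatocyte growth factor (HGF). When bound by HGF, or when its gene is amplified, it recruits adaptors such as GAB1 and GRB2 and drives the RAS-ERK and PI3K-AKT cascades, and capmatinib occupies its ATP site and blocks the kinase. ERK activity induces transcription factors of the ETS and AP-1 families, the D-type cyclin and the phosphatases that shut ERK off again, while AKT holds FOXO transcription factors out of the nucleus. *NF1* encodes neurofibromin, a RAS GTPase-activating protein whose loss in Schwann lineage cells leads to nerve sheath tumours. p53 activates genes of cell cycle arrest and apoptosis, and mice that lose *Nf1* and *Trp53* together develop MPNSTs.

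The 4 libraries held between 32943928 and 38842903 counts. Levels are given as CPM, a library's count of a gene scaled to its total count and its TMM factor, always in the order replicate 1 and replicate 2. The 2 vehicle libraries correlated at r = 0.998 and the 2 capmatinib libraries at r = 0.997, against 0.904 to 0.906 between treatments. These correlations used log levels of 8728 genes, those averaging 10 CPM or higher over the 4 libraries. The lower genes among the 14497 were left out of them. A single feature, *Gm42418*, which overlaps ribosomal RNA sequence, took between 1.11% and 10.0% of the counts of a library and differed more between replicates than between treatments. *Trp53* transcripts were still counted, at 100.1 and 103 CPM with vehicle. With scaling over all 8 libraries it stood at 97.5 and 100.1 CPM in the vehicle libraries of NF1-MET;sgP53, against 182 and 193 CPM in those of NF1-MET, so it was lower in the targeted line in both replicates. An edit in a coding exon need not remove the transcript, and these counts do not show the edit itself. Cell type markers were read as counts over the 4 libraries. Of 10 fibroblast and mesenchymal markers 9 passed the count threshold. *Col1a1*, *Col1a2*, *Vim*, *Pdgfra*, *Pdgfrb* and *Prrx1* had at least 7973 counts in each library and *Twist1* at least 1429, whereas *Thy1* had 64 to 148, *Dcn* 46 to 68 and *Lum* at most 1. Of 10 Schwann cell markers 5 passed, with *Pmp22* at 931 to 4185 counts, while the defining factor *Sox10* had at most 3 and *S100b* at most 21. Of 10 leukocyte markers 3 passed, namely *Cd14* with 145 to 308 counts, *Cd68* with 33 to 73 and *Csf1r* with 10 to 30, and 5 had no counts. Of 10 endothelial markers 3 passed, the highest being *Egfl7* with 41 to 74 counts, and 3 had none. No epithelial marker of 10 passed, and none had over 7 counts. Of 12 skeletal muscle markers 2 passed, *Acta1* with 40 to 615 counts and *Tnnt3* with 11 to 20, and 7, among them *Myod1*, *Myog* and *Pax7*, had none. Of 8 neuron markers 4 passed, of which *Nefl* had 2880 and 3340 counts with vehicle and 235 and 213 with capmatinib, *Nefm* 2980 and 3525 counts with vehicle and 439 and 463 with capmatinib, and *Tubb3* 747 to 1503 over all 4, while 2 had none. Of 6 melanocyte markers 2 passed, *Mitf* with 199 to 314 counts and *Pmel* with 7 to 19, and 4 had none.

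Capmatinib changed most of the transcriptome of NF1-MET;sgP53 cells. At an adjusted p under 0.05, 9804 genes were called (67.6%), of which 4963 were higher with capmatinib (34.2%) and 4841 were lower (33.4%). In what follows, rose and fell are used of called genes only. Counts of list members that rose and fell are to be read beside these shares of 34.2% and 33.4%. Large rises outnumbered large falls. A change of at least 2-fold was reached by 1509 genes that rose (10.4%) and 728 that fell (5.02%), at least 8-fold by 190 and 91, and at least 32-fold by 31 and 23. The genes that rose at least 2-fold took 5.29% and 5.59% of all counts with vehicle and 14.8% and 16.2% with capmatinib, while those that fell at least 2-fold went from 3.60% and 3.72% to 1.17% and 1.30%. The 2 vehicle values lay wholly above or below the 2 capmatinib values in 11958 genes (82.5%). With library totals in place of TMM factors the median log2 change over all genes moved from 0.0049 to -0.118, and 3260 genes were called higher and 4933 lower, so small changes near 0 depend on the scaling.

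**Figure D1:**
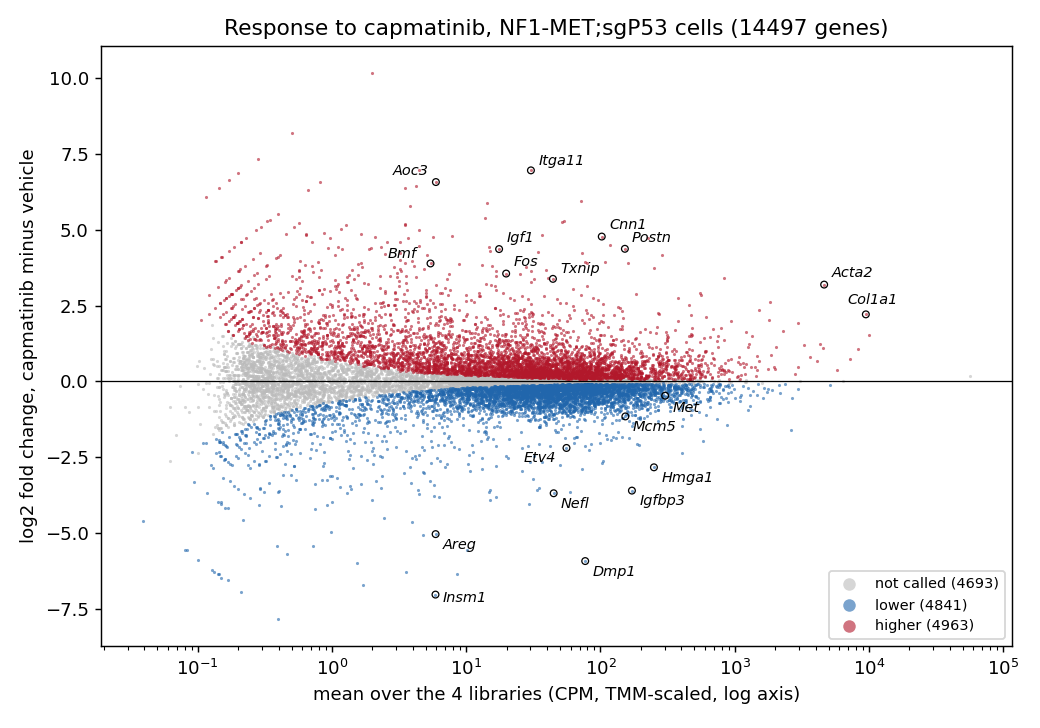
Response of the 14497 genes to capmatinib in NF1-MET;sgP53 cells, plotted as the log2 fold change (capmatinib minus vehicle) against the mean level over the 4 libraries in CPM on a log axis, with called genes in red (higher) and blue (lower) and 19 genes named. At high levels the rises reach further from 0 than the falls, and the uppermost point is *Map3k7cl*, singled out here after its value was seen, with 0 counts over the vehicle libraries and 276 over the capmatinib libraries, at least 99.15-fold higher against a floor of 3 counts per group.

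The transcript of the receptor itself changed little. The line carries a MET transgene, and it is not known here whether its transcripts are among the counts of *Met*. *Met* fell from 353 and 351 CPM to 255 and 253 CPM (log2 fold change -0.47, SE 0.029, adjusted p = 2.54e-12), and its ligand *Hgf* fell from 33.8 and 34.4 CPM to 27.4 and 25.97 CPM (log2 fold change -0.35, SE 0.053). Both pairs of capmatinib values lay below both vehicle values, but the falls were only 1.39-fold and 1.28-fold. Groups did not overlap in 82.5% of all genes tested. Of the 39 tested genes that couple MET to its effectors or carry it to the lysosome, 18 rose (46.2%) and 10 fell (25.6%). Over all genes tested 34.2% rose and 33.4% fell. The median log2 fold change of the group was 0.04, beside 0.0049 over all genes. *Gab1*, the docking protein of MET, rose from 21 and 21.2 CPM to 48.5 and 47.9 CPM (log2 fold change 1.19, SE 0.049, adjusted p = 1.95e-15). *Prkce*, a protein kinase C isoform, rose from 13.7 and 13.6 CPM to 22.4 and 19.8 CPM (log2 fold change 0.63, SE 0.074). *Sh3kbp1*, which links the receptor to the endocytic machinery, fell from 221 and 229 CPM to 172 and 173 CPM (log2 fold change -0.38, SE 0.031), and *Cd44*, a co-receptor for MET in several tissues, fell from 830.1 and 842 CPM to 463 and 476 CPM (log2 fold change -0.83, SE 0.026). Changes in this group were thus small, and the largest was the 2.99-fold rise of *Plau*, the urokinase that can activate HGF, from 131 and 129 CPM to 390.4 and 386 CPM (log2 fold change 1.58, SE 0.031, adjusted p = 2.67e-21).

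Transcripts of other growth factor receptors gave smaller and larger changes than *Met*. Of 29 of 44 listed receptor tyrosine kinases that passed the count threshold, 17 rose and 7 fell, with a median of 0.32, and 6 rose and 1 fell at least 2-fold. *Pdgfrb*, a receptor of PDGF-B, was at 238 and 244 CPM with vehicle and 486 and 482 CPM with capmatinib (log2 fold change 1.004, SE 0.029, adjusted p = 3.97e-18), a 2.01-fold rise in which the groups lay far apart. *Pdgfra*, which encodes the other PDGF receptor, fell from 459.9 and 461 CPM to 372 and 366 CPM (log2 fold change -0.32, SE 0.028). *Igf1r* (log2 fold change 0.57, SE 0.030) and *Egfr* (log2 fold change 0.52, SE 0.055) rose, the latter only from 23.4 and 25.3 CPM to 34.4 and 35.3 CPM. *Epha3*, an ephrin receptor, gave the largest rise of the list, from 1.55 and 1.54 CPM to 12 and 11.3 CPM (log2 fold change 2.91, SE 0.12), and *Mertk*, a receptor that mediates uptake of dying cells, the largest fall, from 87.5 and 82.98 CPM to 30.6 and 33.05 CPM (log2 fold change -1.42, SE 0.043). *Erbb3* had under 1 CPM in each library and was not called.

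Among 31 tested growth factor genes 18 rose and 12 fell (median 0.52). *Areg*, which encodes the EGFR ligand amphiregulin, was at 12.4 and 10.6 CPM with vehicle and 0.3204 and 0.368 CPM with capmatinib, a 32.9-fold fall (log2 fold change -5.04, SE 0.18, adjusted p = 2.33e-16). *Hbegf*, another EGFR ligand, fell from 126 and 125 CPM to 27.3 and 29.4 CPM (log2 fold change -2.14, SE 0.038). In the opposite direction, *Igf1*, the ligand of IGF1R, was at 1.52 and 1.71 CPM with vehicle and 32.9 and 34.2 CPM with capmatinib, a 20.6-fold rise (log2 fold change 4.36, SE 0.095, adjusted p = 2.00e-20). *Pdgfb* rose from 3.05 and 3.100 CPM to 26.2 and 29 CPM (log2 fold change 3.17, SE 0.092), while *Pdgfa* changed little, from 69.5 and 74.4 CPM to 62.2 and 67.03 CPM (log2 fold change -0.16, SE 0.040, not called without capmatinib replicate 1). Ligand and receptor genes both rose for *Igf1* with *Igf1r* and for *Pdgfb* with *Pdgfrb*, while the other PDGF receptor gene, *Pdgfra*, fell. In the IGF axis, 9 of 15 tested genes rose and 5 fell, with a median of 1.31. *Igfbp3*, which binds IGFs outside the cell, was the largest fall there, from 321 and 313 CPM to 26.4 and 25.7 CPM, or 12.2-fold (log2 fold change -3.60, SE 0.037, adjusted p = 3.85e-26).

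**Figure D2:**
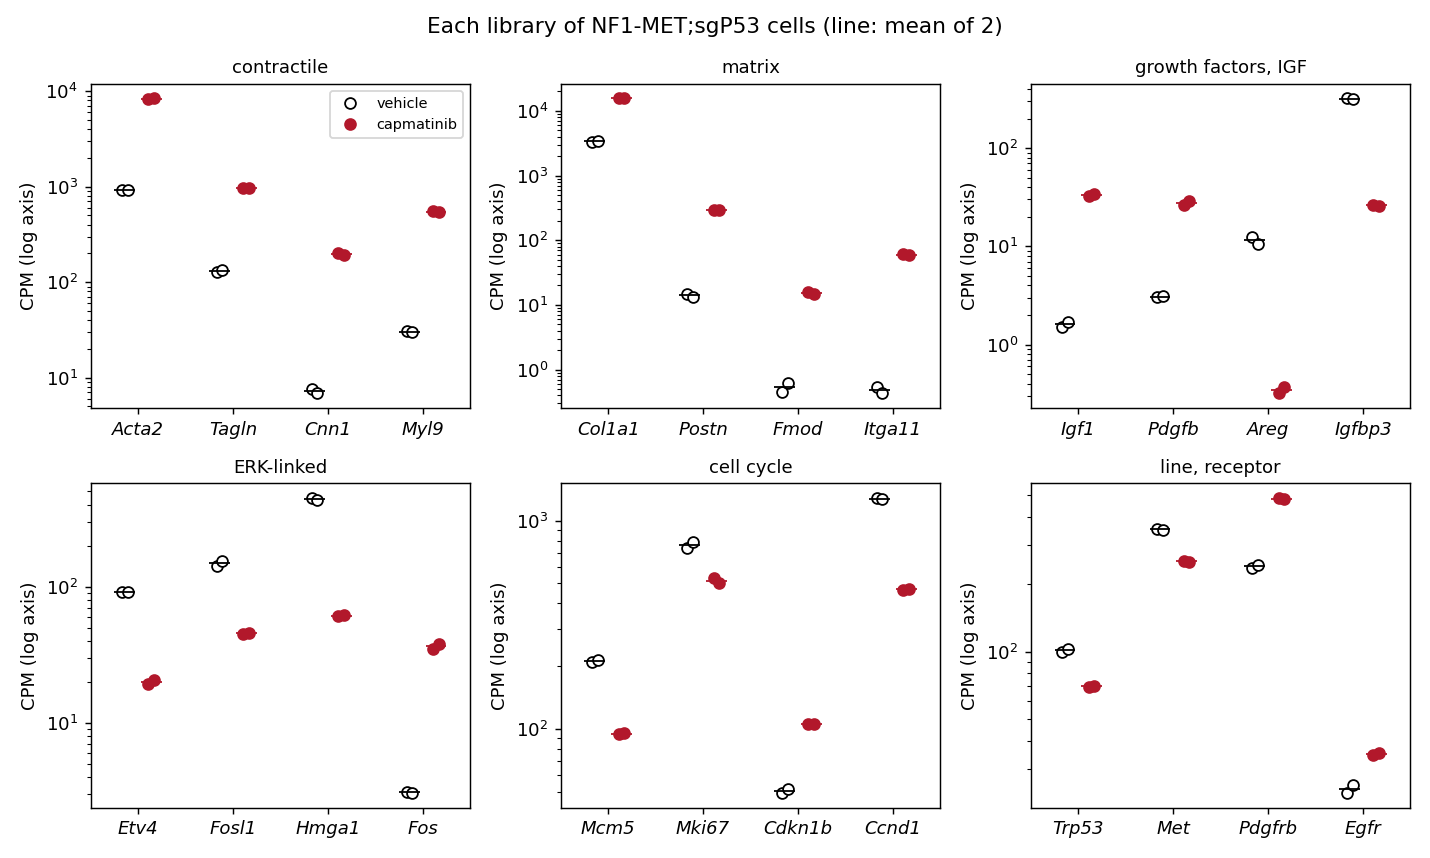
Levels of 24 genes in each NF1-MET;sgP53 library, in CPM on log axes that differ between panels, with open circles for the 2 vehicle libraries, filled circles for the 2 capmatinib libraries and a line at the mean of each pair. In every gene drawn the replicates of a treatment lie closer to each other than to either library of the other treatment, from the small falls of *Trp53* and *Met* to the 125-fold rise of *Itga11*. The treatments did not overlap in 82.5% of all genes tested.

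The genes through which ERK restrains itself fell on the whole, but unevenly. All 17 listed feedback inhibitors were tested, of which 5 rose and 11 fell, with a median of -0.46. *Dusp4*, a nuclear phosphatase of ERK and other MAP kinases, was at 55.9 and 57.4 CPM with vehicle and 13.1 and 14.1 CPM with capmatinib (log2 fold change -2.06, SE 0.054, adjusted p = 5.14e-19). *Dusp6*, the cytoplasmic ERK phosphatase, fell only from 143 and 144 CPM to 112 and 112 CPM (log2 fold change -0.36, SE 0.034), and *Spry4*, an inhibitor of receptor signalling to RAS, only from 71.6 and 72.9 CPM to 61.3 and 59.9 CPM (log2 fold change -0.25, SE 0.035). *Spred2*, which brings neurofibromin to the membrane, fell from 117 and 117 CPM to 73.98 and 74.8 CPM (log2 fold change -0.66, SE 0.035). *Dusp8*, a phosphatase that acts mainly on JNK and p38, was the largest rise among them, from 8.45 and 8.699 CPM to 21.96 and 20.8 CPM (log2 fold change 1.32, SE 0.076).

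Transcription factors and early genes induced by ERK split evenly, with 15 that rose and 15 that fell among 31 (48.4% each, median -0.10). Over all genes tested 34.2% rose and 33.4% fell. The PEA3 factors fell: *Etv4* was at 91.8 and 91.5 CPM with vehicle and 19.4 and 20.6 CPM with capmatinib (log2 fold change -2.20, SE 0.042, adjusted p = 1.84e-21), *Etv5* fell from 100.5 and 98.7 CPM to 34.1 and 35.3 CPM (log2 fold change -1.52, SE 0.036) and *Etv1* by less, from 33.99 and 35.1 CPM to 22.7 and 21.9 CPM (log2 fold change -0.63, SE 0.054). *Fosl1*, which encodes the AP-1 subunit FRA1, fell from 143 and 154 CPM to 45.2 and 45.7 CPM (log2 fold change -1.71, SE 0.040), with the limit that 57% of its exon bases are shared with *Ccdc85b* on the opposite strand and that the strand setting of the counts is not stated. The chromatin protein gene *Hmga1* was the largest fall of the list, 7.13-fold, from 447 and 431 CPM to 60.9 and 62.1 CPM (log2 fold change -2.83, SE 0.034, adjusted p = 4.94e-25). *Ccnd1*, which encodes cyclin D1, fell from 1281 and 1268 CPM to 466 and 471 CPM (log2 fold change -1.44, SE 0.024), with 23% of its exon bases shared with a gene on the opposite strand. The groups of *Etv4*, *Etv5*, *Fosl1*, *Hmga1* and *Ccnd1* lay apart by far more than their replicates. *Myc*, in contrast, was at 169 and 168 CPM with vehicle and 149 and 157 CPM with capmatinib (log2 fold change -0.14, SE 0.034). The immediate early gene *Fos* was at 3.14 and 3.08 CPM with vehicle and 34.95 and 38.1 CPM with capmatinib, an 11.8-fold rise (log2 fold change 3.56, SE 0.084, adjusted p = 9.72e-20), and *Egr1* rose from 292 and 287 CPM to 564 and 580.0 CPM (log2 fold change 0.98, SE 0.029).

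Genes linked to insulin and PI3K signalling and to FOXO factors rose more often than they fell. Of 42 tested, 24 rose and 8 fell, and 10 rose at least 2-fold, with a median of 0.30. *Txnip*, which restrains glucose uptake and is kept low by growth signals, was at 7.38 and 8.05 CPM with vehicle and 82.2 and 79.3 CPM with capmatinib (log2 fold change 3.38, SE 0.054, adjusted p = 7.34e-23). *Pik3ip1*, an inhibitor of PI3K, rose from 4.24 and 4.01 CPM to 11.5 and 11.2 CPM (log2 fold change 1.46, SE 0.100), and *Sesn1*, which restrains mTORC1, rose from 11.9 and 11.4 CPM to 22.6 and 21.8 CPM (log2 fold change 0.93, SE 0.071). *Irs2*, an adaptor of the insulin and IGF1 receptors, rose from 81.4 and 80.8 CPM to 110.4 and 115 CPM (log2 fold change 0.48, SE 0.036). All 4 had both capmatinib values above both vehicle values, which was a condition for naming *Txnip*. The groups did not overlap in 82.5% of all genes tested. *Trib1*, which encodes a pseudokinase and is induced by ERK, was the largest fall, from 112 and 111 CPM to 57.9 and 56.2 CPM (log2 fold change -0.97, SE 0.035).

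Cell cycle genes fell without exception among those listed for replication and mitosis. All 50 genes of DNA replication were tested and all 50 fell, 20 of them at least 2-fold, with a median of -0.94 and a range of -1.61 to -0.349. Their summed level went from 5417 and 5406 CPM to 2899 and 2949 CPM. *Mcm5*, a subunit of the replicative helicase, was at 209.7 and 213 CPM with vehicle and 94.3 and 95.6 CPM with capmatinib (log2 fold change -1.16, SE 0.033, adjusted p = 2.61e-18). *Mcm2* fell from 183 and 185 CPM to 91.4 and 95.4 CPM (log2 fold change -0.98, SE 0.035), the licensing factor *Cdc6* from 42.7 and 43.9 CPM to 20.2 and 20.5 CPM (log2 fold change -1.09, SE 0.052), and *Rrm2*, the limiting subunit of ribonucleotide reductase, from 171 and 170.3 CPM to 78.3 and 79.3 CPM (log2 fold change -1.12, SE 0.035). The largest fall of the list was that of *Ung*, a uracil glycosylase that repairs DNA, from 16.2 and 15.5 CPM to 5.59 and 4.78 CPM (log2 fold change -1.61, SE 0.094). In each of these genes both capmatinib values lay below both vehicle values, which was a condition for naming *Ung*. The groups did not overlap in 82.5% of all genes tested.

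Mitotic genes fell less deeply. All 59 of them fell, 1 of them at least 2-fold, with a median of -0.69, and the summed level went from 8643 and 8717 CPM to 5413 and 5473 CPM. *Aurka*, a kinase of the spindle poles, was at 81.8 and 82.3 CPM with vehicle and 45.03 and 46.2 CPM with capmatinib (log2 fold change -0.85, SE 0.036, adjusted p = 2.64e-15). *Plk1* fell from 150.0 and 153 CPM to 83.4 and 87.6 CPM (log2 fold change -0.82, SE 0.036), *Ccnb1*, the mitotic cyclin, from 114 and 114 CPM to 64.8 and 66.3 CPM (log2 fold change -0.80, SE 0.035), and its kinase *Cdk1* from 187 and 177 CPM to 97.1 and 105 CPM (log2 fold change -0.85, SE 0.039). Of the 29 genes of G1 control 4 rose and 22 fell (median -0.62). *E2f8*, a late repressor among the E2F factors, fell from 135 and 140.0 CPM to 32.9 and 33.2 CPM (log2 fold change -2.06, SE 0.037), *E2f1* from 63.7 and 64.02 CPM to 40.3 and 42.6 CPM (log2 fold change -0.62, SE 0.040) and *Ccne1* from 21.5 and 21.3 CPM to 11.4 and 12.2 CPM (log2 fold change -0.86, SE 0.071), whereas *Rb1*, the brake on E2F, rose from 25.8 and 26.1 CPM to 45.4 and 44.9 CPM (log2 fold change 0.80, SE 0.048). In bulk libraries such as these, a smaller share of dividing cells and less RNA of these genes in each cell cannot be told apart.

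The promoters of the replication genes are shown because the E2F site is a known control element of this gene set. RefSeq promoters (GRCm38.p6, 250 bases before to 50 after the start of transcription) were found for 41 of the 50 genes, and 21 of these (51.2%) held TTCCCGC or TTGGCGC on either strand, compared with 14.3% of the 10187 tested genes with a promoter in the table and 7.79% of all 27025 genes there. Only 10187 of the 14494 symbols of the tested genes (some symbols stand for more than 1 gene) were matched, so the share over tested genes is incomplete. In the 2 stretches below, which lie upstream of the start on the plus strand at chr8:75109325-75109386 and chr16:93883654-93883700 and belong to the members with the largest falls among those with a single start site and a match more than 10 bases before it, the capitals mark the matches. A match of letters is not evidence of binding.
*Mcm5*: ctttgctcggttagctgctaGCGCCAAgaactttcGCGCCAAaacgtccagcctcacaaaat
*Chaf1b*: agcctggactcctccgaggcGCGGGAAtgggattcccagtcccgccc
The printed stretch of *Mcm5* holds 2 matches and that of *Chaf1b*, a subunit of the chromatin assembly factor, holds 1. The promoter of *Chaf1b* has another match after the start, outside the printed stretch.

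Inhibitors of cyclin-dependent kinases moved in both directions. *Cdkn1b*, which encodes p27 and is a target of FOXO factors, rose 2.09-fold, from 49.2 and 51.4 CPM to 105 and 105 CPM (log2 fold change 1.06, SE 0.035, adjusted p = 3.01e-17). *Cdkn2b*, which encodes p15 and lost its call with library totals in place of TMM factors, rose from 70.4 and 69.2 CPM to 89.7 and 82.9 CPM (log2 fold change 0.31, SE 0.037), a change of 1.24-fold. *Cdkn1a*, which encodes p21 and is the best known target of p53, fell 2.002-fold, from 30.3 and 27.8 CPM to 13.8 and 15.2 CPM (log2 fold change -1.001, SE 0.068, adjusted p = 1.45e-11). Of 42 tested genes listed as p53 targets 16 rose (38.1%), 14 fell (33.3%) and 12 were not called, shares near the 34.2% and 33.4% of all genes tested, with a median of 0.02, which lies close to that of all genes. *Mdm2*, the p53 ubiquitin ligase, was at 78.6 and 77.2 CPM with vehicle and 74.9 and 73.7 CPM with capmatinib and *Zmat3* at 58.1 and 55.7 CPM with vehicle and 56.5 and 54.7 CPM with capmatinib, neither of them called. *Btg2*, an antiproliferative gene with p53-independent inducers as well, was the largest rise of the list, from 7.41 and 6.75 CPM to 77.8 and 71.5 CPM (log2 fold change 3.40, SE 0.061, adjusted p = 5.43e-22).

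Apoptosis regulators of the BCL2 family changed in both directions, with 9 that rose (52.9%) and 5 that fell (29.4%) among 17. Over all genes tested 34.2% rose and 33.4% fell. *Bmf*, a BH3-only protein that promotes apoptosis, was at 0.896 and 0.505 CPM with vehicle and 10.2 and 10.1 CPM with capmatinib, a 14.8-fold rise (log2 fold change 3.89, SE 0.17, adjusted p = 4.86e-15). *Bcl2l11*, which encodes the BH3-only protein BIM, rose from 21.8 and 22.1 CPM to 30.5 and 28.8 CPM (log2 fold change 0.43, SE 0.057). *Bcl2l1*, which encodes BCL-XL, fell 2.03-fold, from 99.2 and 93.4 CPM to 48.8 and 45.95 CPM (log2 fold change -1.02, SE 0.038), and *Mcl1* fell slightly, from 195 and 191 CPM to 180.0 and 181 CPM (log2 fold change -0.10, SE 0.031, a call that was lost with library totals and without vehicle replicate 1). *Bcl2* rose from 33.2 and 34.2 CPM to 42.7 and 45.8 CPM (log2 fold change 0.39, SE 0.048).

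Transcripts of ribosome biogenesis genes fell as well. Of 60 genes of ribosome biogenesis and RNA polymerase I, 59 fell and 1 rose, with a median of -0.78. *Dkc1*, the pseudouridine synthase of ribosomal RNA, fell from 146 and 146 CPM to 60.6 and 60.04 CPM (log2 fold change -1.27, SE 0.035, adjusted p = 1.78e-18). *Ncl*, which encodes nucleolin, fell from 1661 and 1666 CPM to 959 and 922 CPM (log2 fold change -0.82, SE 0.023), *Nop56* from 182 and 191 CPM to 94.3 and 99 CPM (log2 fold change -0.95, SE 0.036) and *Polr1b*, a core subunit of RNA polymerase I, from 58.6 and 60.8 CPM to 26.8 and 29.9 CPM (log2 fold change -1.08, SE 0.049). The single rise was *Taf1b*, from 11.7 and 11.1 CPM to 14.6 and 14.01 CPM (log2 fold change 0.33, SE 0.079), which was not called with library totals. Genes of the cytosolic ribosomal proteins fell much less, with 69 of 80 lower, 1 higher and a median of -0.21, and their summed level went from 27796 and 26720.4 CPM to 23642 and 23582 CPM. *Rps2* fell from 1031 and 983 CPM to 778 and 778 CPM (log2 fold change -0.37, SE 0.026). Many of these genes have processed pseudogenes with nearly the same sequence, so their counts are uncertain. Of the 76 genes of the respiratory chain and ATP synthase 42 fell and 6 rose, with a median of -0.12 that is about as large as the shift of all genes between scalings.

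**Figure D3:**
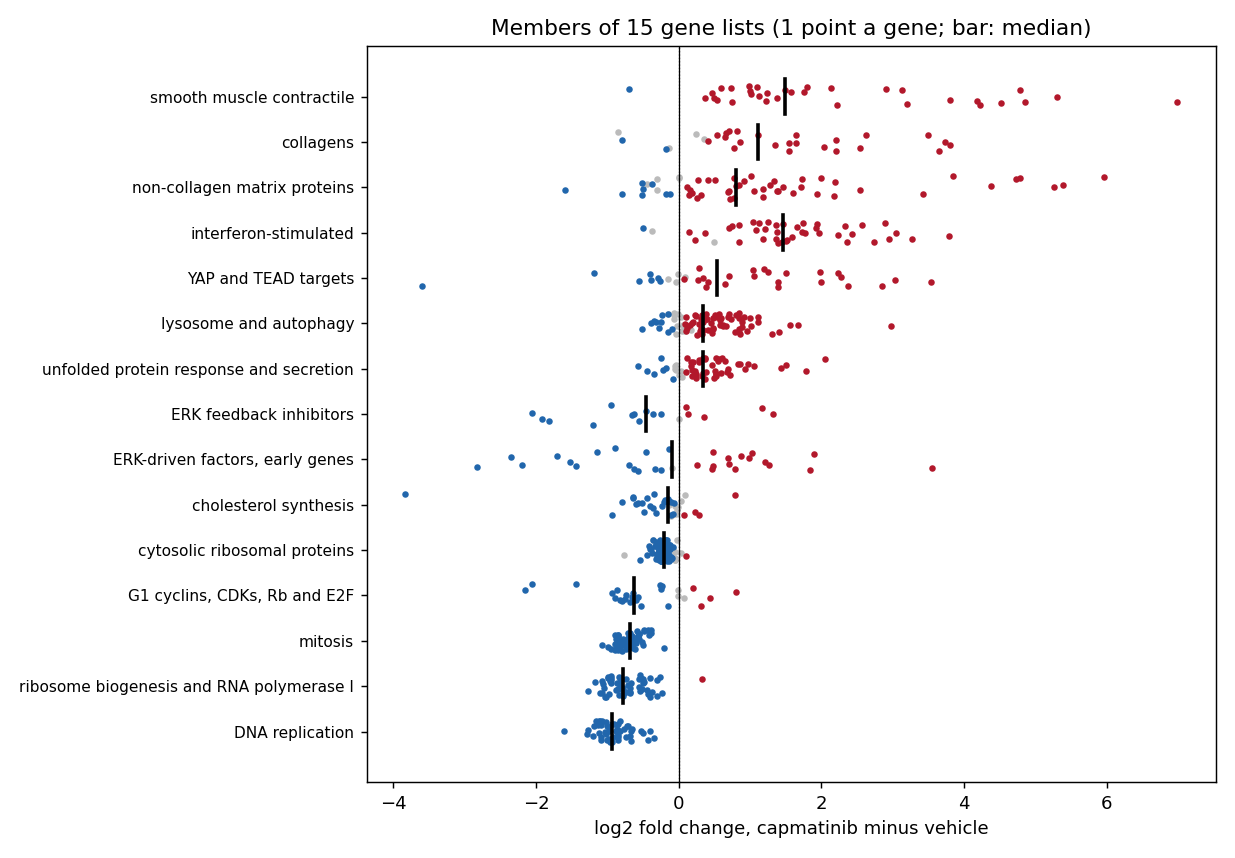
Log2 fold changes (capmatinib minus vehicle) of the tested members of 15 gene lists, 1 point a gene, in red where higher, blue where lower and grey where not called, with a black bar at the median of each list. All members of the replication and mitosis lists lie to the left of 0, while all members but 1 of the contractile list lie to the right, out to 6.98.

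Contractile genes of smooth muscle rose together. Of 33 of 39 listed genes that were tested, 32 rose, 23 of them at least 2-fold, and 1 fell, with a median of 1.49 and a summed level that went from 18177 and 18663 CPM to 46655 and 46441 CPM. *Acta2*, which encodes smooth muscle actin, was at 915 and 913 CPM with vehicle and 8307 and 8406 CPM with capmatinib, a 9.14-fold rise (log2 fold change 3.19, SE 0.020, adjusted p = 1.78e-29). *Cnn1*, which encodes the actin-binding protein calponin, was at 7.56 and 6.87 CPM with vehicle and 201 and 193 CPM with capmatinib, a 27.4-fold rise (log2 fold change 4.78, SE 0.050, adjusted p = 4.40e-26). *Myh11*, the smooth muscle myosin heavy chain, had 5 counts over both vehicle libraries and reached 8.45 and 9.25 CPM with capmatinib (log2 fold change 6.98, SE 0.27). In each of these 3 genes both capmatinib values lay above both vehicle values, where groups did not overlap in 82.5% of all genes tested, and *Myh11* stayed under 10 CPM. *Tagln*, which encodes SM22, rose from 128 and 133 CPM to 974 and 975 CPM (log2 fold change 2.90, SE 0.030), with the limit that 68% of its exon bases lie opposite *Pcsk7* and *Gm48529*. *Lmod1*, which nucleates actin filaments in smooth muscle, rose from 2.24 and 3.004 CPM to 106 and 104 CPM (log2 fold change 5.30, SE 0.067), and *Vcl*, which encodes vinculin, from 694 and 714 CPM to 1995 and 1969 CPM (log2 fold change 1.49, SE 0.023), 26% of whose exon bases lie opposite *Ap3m1*. The single fall was *Csrp2*, an LIM-domain protein also made in smooth muscle, from 168 and 159 CPM to 99.4 and 102 CPM (log2 fold change -0.70, SE 0.037). Skeletal muscle regulators had no counts, as stated above, while the skeletal actin gene *Acta1*, a marker listed for skeletal muscle, went from 44 and 40 counts to 532 and 615.

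The CArG box, to which serum response factor binds in contractile genes, was looked for in the same promoter windows (CC, then 6 letters of A or T, then GG). It was found in 8 of the 28 contractile genes with a RefSeq promoter (28.6%), in 1.65% of the 10187 matched tested genes and in 1.81% of all 27025 genes. As only 10187 of the 14494 symbols of the tested genes were matched, the share over tested genes is incomplete here too. The 8 are *Myl9*, *Myl6*, *Cnn2*, *Actg1*, *Vcl*, *Ldb3*, *Fhl1* and *Fhl2*, all of which rose. The stretches below show the box in capitals with its flanks, upstream of the start and on the plus strand, at chr2:156775283-156775332, chr14:20929151-20929200 and chr10:79988524-79988573. They are the 3 genes with the largest rises among those with a single start site in the table.
*Myl9*: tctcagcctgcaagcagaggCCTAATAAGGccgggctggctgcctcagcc
*Vcl*: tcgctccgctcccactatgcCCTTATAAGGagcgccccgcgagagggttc
*Cnn2*: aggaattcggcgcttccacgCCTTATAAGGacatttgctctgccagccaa
*Acta2*, *Cnn1* and *Lmod1* had no strict match in this window, which says nothing of boxes elsewhere. For targets of YAP and for the ERK-driven genes, under 80% of members matched a RefSeq promoter (25 of 34 and 21 of 31), so the comparison was void and no share is given.

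Targets of YAP and TEAD, which respond to cell tension and density, rose in the main. Of 34 tested 23 rose and 7 fell, with a median of 0.53. *Ccn2*, a matricellular protein gene, was at 488 and 494 CPM with vehicle and 2536 and 2538 CPM with capmatinib (log2 fold change 2.37, SE 0.022, adjusted p = 7.37e-27), although 23% of its exon bases are shared with a gene on the opposite strand. *Ccn1* rose from 378 and 380.2 CPM to 1472 and 1521 CPM (log2 fold change 1.98, SE 0.025), *Ankrd1* from 102 and 97.8 CPM to 264 and 257 CPM (log2 fold change 1.39, SE 0.033), *Amotl2*, an inhibitor that YAP itself induces, from 150.0 and 154 CPM to 604 and 609.7 CPM (log2 fold change 1.996, SE 0.030), and *Tgfb2* from 3.49 and 4.33 CPM to 45.1 and 46.9 CPM (log2 fold change 3.54, SE 0.079). *Tgfb2* rose the furthest of these, 11.6-fold, and *Ankrd1* the least, 2.61-fold. *Igfbp3*, described above, is listed here too and is the largest fall.

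Genes of the extracellular matrix mostly rose. Of 29 of 44 listed collagen genes that were tested 23 rose and 2 fell, with a median of 1.11, and their summed level went from 14212 and 14302 CPM to 47214 and 46545 CPM, a 3.29-fold rise. *Col1a1* was at 3356 and 3378 CPM with vehicle and 15555 and 15614 CPM with capmatinib, a 4.63-fold rise (log2 fold change 2.21, SE 0.017, adjusted p = 9.21e-28). *Col3a1* rose from 1108 and 1094 CPM to 3519 and 3392 CPM (log2 fold change 1.65, SE 0.021), *Col11a1*, a fibrillar collagen of cartilage and reactive stroma, from 34.3 and 35.5 CPM to 474 and 457 CPM (log2 fold change 3.74, SE 0.036), and the basement membrane collagen *Col4a1* from 514 and 502 CPM to 867 and 871 CPM (log2 fold change 0.77, SE 0.025). *Col5a3* was one of the falls, from 45.3 and 44.9 CPM to 26.2 and 25.8 CPM (log2 fold change -0.80, SE 0.048).

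Non-collagen matrix genes followed, with 42 that rose and 8 that fell among 55 (median 0.80). *Prelp*, a small leucine-rich proteoglycan gene, was at 2.18 and 2.28 CPM with vehicle and 136 and 144 CPM with capmatinib, a 62.4-fold rise (log2 fold change 5.96, SE 0.057, adjusted p = 1.62e-26). *Aspn* rose from 0.657 and 0.625 CPM to 27.6 and 26.1 CPM (log2 fold change 5.39, SE 0.12), *Ogn* from 15.8 and 17.2 CPM to 442 and 435 CPM (log2 fold change 4.73, SE 0.041) and *Fmod* from 0.448 and 0.625 CPM to 15.6 and 14.7 CPM (log2 fold change 4.79, SE 0.15). *Dcn*, of the same family as these 4, was at 1.67 and 1.63 CPM with vehicle and 1.37 and 1.302 CPM with capmatinib and was not called. *Postn*, which encodes periostin, rose 20.7-fold, from 14.6 and 13.4 CPM to 289 and 291 CPM (log2 fold change 4.37, SE 0.043, adjusted p = 1.99e-26). *Fn1* (fibronectin) rose from 5509 and 5257 CPM to 11428 and 10906 CPM (log2 fold change 1.05, SE 0.023) and *Thbs1* (thrombospondin) from 1226 and 1206 CPM to 4702 and 4625 CPM (log2 fold change 1.94, SE 0.020). *Spp1*, which encodes osteopontin, went the other way, from 4056 and 3831 CPM to 1312 and 1302 CPM (log2 fold change -1.59, SE 0.023, adjusted p = 1.83e-23).

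Proteases that remodel matrix and their inhibitors gave 26 rises and 8 falls among 36 (median 0.97). *Adamts5*, an aggrecanase, was at 12.9 and 13.8 CPM with vehicle and 207 and 202 CPM with capmatinib (log2 fold change 3.94, SE 0.044, adjusted p = 1.53e-25), and *Adamts7* fell from 86.2 and 85.9 CPM to 23.04 and 24.02 CPM (log2 fold change -1.87, SE 0.041). *Mmp3* was low throughout and fell from 3.17 and 2.45 CPM to 0.3495 and 0.651 CPM (log2 fold change -2.46, SE 0.28). *Mmp9* stayed under 1 CPM in each library and was not called. For integrins and focal adhesion proteins, 25 of 40 rose (62.5%) and 11 fell (27.5%), with a median of 0.57. Over all genes tested 34.2% rose and 33.4% fell. *Itga11*, a collagen-binding integrin subunit, was at 0.538 and 0.433 CPM with vehicle and 60.7 and 59.6 CPM with capmatinib, the largest rise of the named genes with at least 10 CPM in the higher group (log2 fold change 6.96, SE 0.097, adjusted p = 6.86e-24). *Itga8*, which pairs with the β1 chain in smooth muscle and fibroblasts, rose from 10.01 and 9.92 CPM to 235 and 219 CPM (log2 fold change 4.51, SE 0.048), and *Itga5*, the fibronectin receptor subunit, rose from 405 and 407 CPM to 791 and 793 CPM (log2 fold change 0.96, SE 0.026). *Itga6*, a laminin receptor subunit, fell from 317 and 305 CPM to 71.2 and 75.04 CPM (log2 fold change -2.09, SE 0.036).

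**Figure D4:**
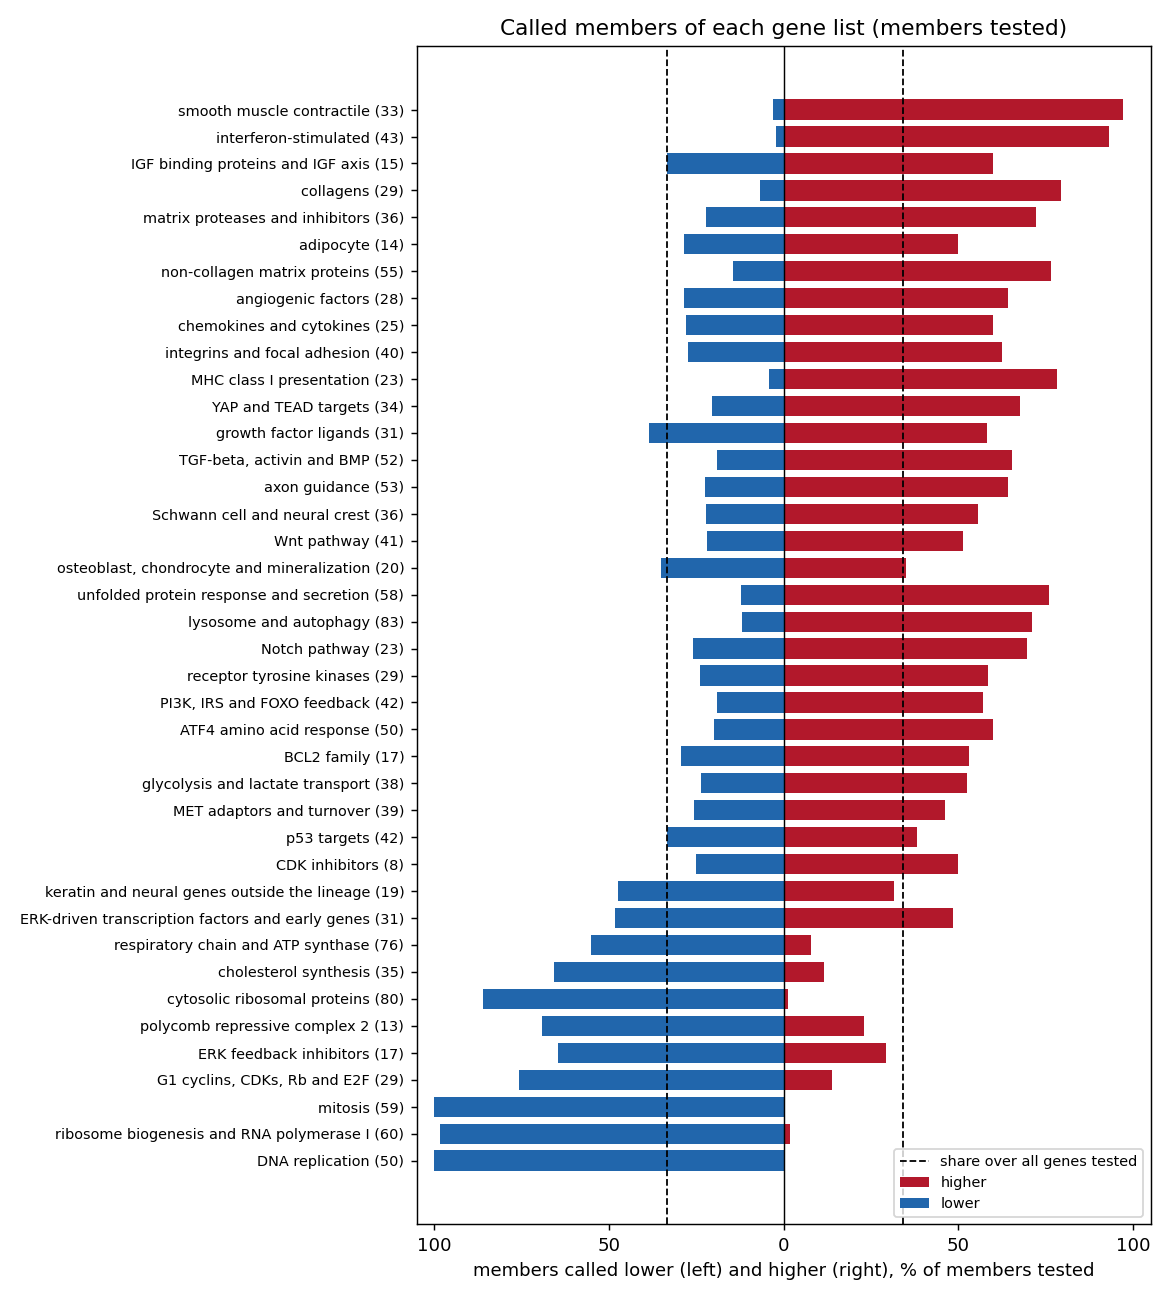
Share of tested members called higher (red, to the right) and lower (blue, to the left) with capmatinib in 40 gene lists with at least 8 tested members, ordered by the median log2 fold change, with the number tested in brackets. The dashed lines mark the shares over all genes tested, 34.2% higher and 33.4% lower, and the contractile, interferon, replication, mitosis and ribosome biogenesis lists stand furthest beyond them.

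Lineage genes moved in several directions. Of 36 of 49 Schwann cell and neural crest genes that passed the threshold, 20 rose (55.6%) and 8 fell (22.2%), with a median of 0.42. Over all genes tested 34.2% rose and 33.4% fell. *Pmp22*, a myelin protein gene also active in mesenchymal cells, was at 27.8 and 29.9 CPM with vehicle and 122 and 114 CPM with capmatinib (log2 fold change 2.03, SE 0.041, adjusted p = 5.73e-21). *Sox9*, a factor of neural crest and cartilage, fell from 50.7 and 52.7 CPM to 19.3 and 18.6 CPM (log2 fold change -1.45, SE 0.051), and *Gap43*, a protein of growing axons and immature Schwann cells, from 22.3 and 21.96 CPM to 3.93 and 3.79 CPM (log2 fold change -2.52, SE 0.088). *Sox10* had 3 counts or fewer in each library.

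Of 20 tested genes of mineralising tissue 7 rose (35.0%) and 7 fell (35.0%), shares near those of all genes tested (34.2% and 33.4%). *Dmp1*, which encodes a matrix protein of bone and dentin, was at 156 and 147 CPM with vehicle and 2.65 and 2.32 CPM with capmatinib, a 60.8-fold fall (log2 fold change -5.93, SE 0.058, adjusted p = 2.01e-26). *Runx2*, the osteoblast factor, rose slightly, from 64.9 and 67.6 CPM to 79.5 and 81.1 CPM (log2 fold change 0.28, SE 0.034, not called with library totals). Of 14 tested adipocyte genes 7 rose, 6 of them at least 2-fold, and 4 fell. Their median was 0.81, but -0.0065 with the stricter count filter. *Cebpd*, a transcription factor of early adipocyte differentiation that other cells make too, rose from 22.9 and 22.4 CPM to 91.1 and 90.1 CPM (log2 fold change 2.001, SE 0.040), and *Fasn*, the fatty acid synthase, fell from 629 and 623 CPM to 324 and 330.5 CPM (log2 fold change -0.94, SE 0.028). *Pparg*, the defining factor of the lineage, was under 1 CPM in each library and was not called. Keratin and neural genes, which do not mark this lineage, gave 6 rises (31.6%) and 9 falls (47.4%) among 19, and all 9 falls were at least 2-fold. *Krt20* was at 21.4 and 18.4 CPM with vehicle and 0.466 and 0.368 CPM with capmatinib (log2 fold change -5.57, SE 0.16, adjusted p = 2.29e-18), whereas *Krt7* went from 0 and 1 counts with vehicle to 47 and 45 counts with capmatinib, a ratio of 99.15 with a counting interval of 17.36 to 3958 over the groups. *Nefl*, which encodes the light neurofilament chain, fell from 86.02 and 80.3 CPM to 6.84 and 6.03 CPM (log2 fold change -3.69, SE 0.060, and 33% of its exon bases lie opposite *Nefm*), and *Insm1*, a neuroendocrine transcription factor, went from 11.4 and 12.02 CPM to 6 counts over both capmatinib libraries (log2 fold change -7.03, SE 0.24). In contrast, *Map2* rose from 26.3 and 27.9 CPM to 83.6 and 84.04 CPM (log2 fold change 1.63, SE 0.041) and *Tubb3* from 22.3 and 21 CPM to 43.8 and 42.4 CPM (log2 fold change 0.99, SE 0.053). Only 4 of 39 Hox genes were tested and 1 of them, *Hoxd8*, was called, from 27.5 and 28.96 CPM to 24.7 and 26.03 CPM (log2 fold change -0.16, SE 0.057), a call that was lost with DESeq2's test and without capmatinib replicate 1 or vehicle replicate 2. Of 13 genes of polycomb repressive complex 2, which silences developmental genes, 9 fell and 3 rose. *Ezh2*, its catalytic subunit, fell from 89.2 and 89.9 CPM to 54.6 and 54.1 CPM (log2 fold change -0.72, SE 0.033) and *Suz12* from 156 and 154 CPM to 98.7 and 95.2 CPM (log2 fold change -0.68, SE 0.035).

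Interferon-stimulated genes rose nearly throughout from low levels. Of 43 of 48 tested, 40 rose, 33 of them at least 2-fold, and 1 fell, with a median of 1.46 and a summed level that went from 505.3 and 505.1 CPM to 1074 and 1054 CPM. *Gbp2*, an interferon-induced GTPase, was at 6.48 and 5.07 CPM with vehicle and 55.1 and 54.7 CPM with capmatinib (log2 fold change 3.26, SE 0.074, adjusted p = 4.21e-20). *Irf7*, the factor that amplifies interferon production, rose from 0.627 and 0.721 CPM to 4.398 and 3.71 CPM (log2 fold change 2.57, SE 0.22), and *Isg15* from 3.91 and 3.68 CPM to 8.83 and 9.28 CPM (log2 fold change 1.26, SE 0.11). *Ifit1* rose from 4.18 and 4.57 CPM to 7.11 and 10.95 CPM (log2 fold change 1.04, SE 0.15), with capmatinib replicates that differed by more than those of the other genes. The single fall was *Ifit2*, from 42.2 and 39.8 CPM to 29.1 and 28.7 CPM (log2 fold change -0.50, SE 0.050). In antigen presentation by MHC class I, 18 of 23 genes rose and 1 fell (median 0.57). *B2m* rose from 252 and 260.1 CPM to 362 and 360.0 CPM (log2 fold change 0.49, SE 0.030), *Tapbp*, the chaperone that loads peptide, from 34.4 and 37.8 CPM to 99.6 and 102 CPM (log2 fold change 1.48, SE 0.040) and the peptide transporter *Tap1* from 2.33 and 2.91 CPM to 6.41 and 8.43 CPM (log2 fold change 1.49, SE 0.15), with 29% of the exon bases of *Tapbp* shared with other genes. *Psme3*, a proteasome activator, was the fall, from 155 and 157 CPM to 103 and 106 CPM (log2 fold change -0.58, SE 0.035).

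Cytokine genes gave 15 rises and 7 falls among 25 (median 0.60). *Ptx3*, a soluble pattern recognition protein, was at 9.89 and 10.2 CPM with vehicle and 152 and 146 CPM with capmatinib, a 14.9-fold rise (log2 fold change 3.89, SE 0.043, adjusted p = 1.02e-25). *Il6* rose from 0.358 and 0.697 CPM to 7.28 and 8.06 CPM (log2 fold change 3.81, SE 0.20). *Csf1*, the macrophage growth factor, rose from 533 and 527 CPM to 805 and 814 CPM (log2 fold change 0.61, SE 0.025) and *Cxcl12* from 220.1 and 222 CPM to 342 and 329 CPM (log2 fold change 0.60, SE 0.031), while *Il34*, the second ligand of the same receptor as CSF1, fell from 31.6 and 30.4 CPM to 14.7 and 14.1 CPM (log2 fold change -1.10, SE 0.062). Of the 3 leukocyte markers tested, *Cd14* and *Cd68* fell, and *Csf1r*, which encodes the receptor of CSF1 and IL34, rose from 17 and 10 counts to 26 and 30 counts (log2 fold change 1.14, SE 0.41, adjusted p = 0.0168). The calls of *Cd68* and *Csf1r* were lost with DESeq2's test and without capmatinib replicate 2 or vehicle replicate 2, and the log2 fold change of *Csf1r* was 0.66 without the latter. The summed level of these 3 went from 9.319 and 9.396 CPM to 6.029 and 6.678 CPM, and the part of such cells in the cytokine values was not tested.

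Morphogen pathways changed gene by gene. For TGF-β, activin and BMP, 34 of 52 tested genes rose and 10 fell (median 0.46). The 2 BMP ligands named by the rule went opposite ways. *Bmp4* was at 0.179 and 0.553 CPM with vehicle and 8.45 and 8.602 CPM with capmatinib (log2 fold change 4.45, SE 0.22, adjusted p = 3.33e-14), and *Bmp2* fell from 65.2 and 62.1 CPM to 5.56 and 5.602 CPM (log2 fold change -3.51, SE 0.061, adjusted p = 3.73e-22). *Inhba*, the activin A subunit, rose from 81.4 and 81.8 CPM to 132 and 126 CPM (log2 fold change 0.66, SE 0.036). Among 41 Wnt pathway genes 21 rose and 9 fell. *Sfrp1*, a secreted Wnt antagonist, rose from 6.004 and 5.09 CPM to 16.9 and 16.3 CPM (log2 fold change 1.59, SE 0.092), *Dkk3* from 251 and 247 CPM to 363 and 371 CPM (log2 fold change 0.56, SE 0.030), and the antagonist *Dkk2* fell from 174 and 178 CPM to 67.3 and 67.9 CPM (log2 fold change -1.38, SE 0.036). *Axin2*, the common readout of canonical Wnt signalling, was at 1.404 and 1.23 CPM with vehicle and 1.98 and 1.58 CPM with capmatinib and was not called. Of 23 Notch genes 16 rose and 6 fell, with *Notch3*, the receptor of vascular smooth muscle, rising from 1.52 and 1.39 CPM to 9.32 and 9.37 CPM (log2 fold change 2.68, SE 0.13), *Jag1* from 37.8 and 40.1 CPM to 59.6 and 63.5 CPM (log2 fold change 0.66, SE 0.044) and *Notch1* falling from 48.7 and 49.9 CPM to 34.8 and 35.8 CPM (log2 fold change -0.48, SE 0.044). For axon guidance, 34 of 53 rose and 12 fell. *Plxna4*, a semaphorin receptor, fell from 46.2 and 45.8 CPM to 6.000 and 5.91 CPM (log2 fold change -2.95, SE 0.065), and *Slit2* rose from 372 and 369 CPM to 498 and 491 CPM (log2 fold change 0.42, SE 0.028). Angiogenic factors gave 18 rises and 8 falls among 28, with *Vegfa* rising from 106 and 109.8 CPM to 151 and 150.3 CPM (log2 fold change 0.48, SE 0.034) and *Esm1*, a proteoglycan of sprouting vessels, falling from 180.4 and 177 CPM to 29.8 and 27.6 CPM (log2 fold change -2.64, SE 0.042).

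Lysosomal and secretory genes rose by small amounts in large numbers. Of 83 lysosome and autophagy genes 59 rose and 10 fell, with a median of 0.34. *Map1lc3a*, which encodes an LC3 protein of autophagosomes, was at 15.5 and 14.3 CPM with vehicle and 46.9 and 47.7 CPM with capmatinib (log2 fold change 1.67, SE 0.056, adjusted p = 4.85e-17), *Map1lc3b* rose from 40.1 and 40.9 CPM to 58.8 and 66.1 CPM (log2 fold change 0.63, SE 0.047) and *Lamp1* from 473 and 456 CPM to 589 and 581 CPM (log2 fold change 0.33, SE 0.028, not called with library totals). For the unfolded protein response and secretion 44 of 58 rose and 7 fell (median 0.34). *Creb3l1*, a factor that drives secretion of collagen, rose from 32.6 and 31.9 CPM to 132 and 134 CPM (log2 fold change 2.04, SE 0.036, adjusted p = 4.02e-22) and *Xbp1* from 118 and 113 CPM to 169 and 168 CPM (log2 fold change 0.55, SE 0.034), whereas the chaperone *Hspa5* was at 1536 and 1508 CPM with vehicle and 1444 and 1433 CPM with capmatinib (log2 fold change -0.08, SE 0.021, not called with library totals). The stress sensor *Ern1* fell from 51.3 and 54.98 CPM to 37.6 and 34.01 CPM (log2 fold change -0.57, SE 0.050). Among 50 genes of the ATF4 amino acid response 30 rose and 10 fell (median 0.25), and *Atf4* itself rose from 339 and 328 CPM to 479 and 476 CPM (log2 fold change 0.52, SE 0.029), *Ddit4*, an mTORC1 inhibitor, from 8.24 and 9.01 CPM to 46.05 and 44.2 CPM (log2 fold change 2.38, SE 0.064) and *Chac1* from 14.7 and 13.9 CPM to 41.9 and 42.3 CPM (log2 fold change 1.56, SE 0.057). *Psat1*, of serine synthesis, fell from 484 and 471 CPM to 301 and 308 CPM (log2 fold change -0.65, SE 0.029).

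Median changes were smaller for lipid and glucose metabolism. Of 35 cholesterol synthesis genes 23 fell (65.7%) and 4 rose (11.4%), beside 33.4% and 34.2% of all genes tested. Their median was -0.15, with a range of -3.83 to 0.79. *Hmgcs1*, which encodes an early enzyme of the pathway, was at 417 and 421 CPM with vehicle and 407 and 409 CPM with capmatinib and was not called. *Akr1c18*, a steroid-metabolising reductase that is in none of the lists, fell from 28.6 and 27.97 CPM to 2.13 and 1.67 CPM (log2 fold change -3.90, SE 0.10, adjusted p = 5.25e-19). Of 38 genes of glycolysis and lactate transport 20 rose, 5 of them at least 2-fold, and 9 fell. Their median was 0.12, with a range of -1.82 to 2.72. *Slc16a1*, which encodes the monocarboxylate transporter MCT1, fell from 192 and 196 CPM to 55.4 and 54.2 CPM (log2 fold change -1.82, SE 0.036, adjusted p = 3.77e-21), *Ldha* fell from 1229 and 1201 CPM to 1088 and 1096 CPM (log2 fold change -0.15, SE 0.022) and the glucose transporter gene *Slc2a1* was at 128 and 124 CPM with vehicle and 126 and 124 CPM with capmatinib, not called and with overlapping groups.

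The genes with the largest changes at 10 CPM or more in the higher group also included some not described so far, of which *Lims2* and *Ccn5* are members of the adhesion and matrix lists and the others of none. *Aoc3*, an amine oxidase of smooth muscle and endothelium, was at 0.149 and 0.0961 CPM with vehicle and 12.2 and 11.3 CPM with capmatinib (log2 fold change 6.58, SE 0.21, adjusted p = 2.06e-17). *Lims2*, an adaptor at focal adhesions, rose from 0.538 and 0.433 CPM to 27.8 and 28.7 CPM (log2 fold change 5.87, SE 0.13), and *Ccn5*, a matricellular protein gene of smooth muscle, from 2.93 and 2.36 CPM to 98.01 and 102 CPM (log2 fold change 5.25, SE 0.065). *Plxdc2*, a transmembrane protein gene, rose from 2.27 and 2.69 CPM to 71.5 and 71.05 CPM (log2 fold change 4.83, SE 0.069), *Myom1*, which encodes a sarcomere protein, from 0.448 and 0.3605 CPM to 11.3 and 10.6 CPM (log2 fold change 4.76, SE 0.17) and *Mustn1*, a small nuclear protein gene of the musculoskeletal system, from 1.404 and 1.18 CPM to 27.6 and 28.4 CPM (log2 fold change 4.45, SE 0.11). All 6 were under 4 CPM with vehicle. On the falling side, *Nptx1*, a neuronal pentraxin gene, was at 17.8 and 15.9 CPM with vehicle and 0.146 and 0.255 CPM with capmatinib (log2 fold change -6.36, SE 0.18, adjusted p = 3.05e-18). *Prkcb*, a protein kinase C isoform, fell from 54.6 and 56.02 CPM to 4.02 and 2.63 CPM (log2 fold change -4.06, SE 0.092), *Cytip*, a scaffold of cytohesins, from 31.4 and 30.4 CPM to 2.27 and 2.07 CPM (log2 fold change -3.83, SE 0.092) and *Slc14a1*, a urea transporter gene, from 113 and 108 CPM to 9.32 and 8.15 CPM (log2 fold change -3.66, SE 0.051). *Pthlh*, which encodes parathyroid hormone-related protein, fell from 28.6 and 25.98 CPM to 2.33 and 1.98 CPM (log2 fold change -3.66, SE 0.10), *Acsbg1*, an acyl-CoA synthetase gene, from 11.6 and 11.6 CPM to 0.757 and 0.905 CPM (log2 fold change -3.80, SE 0.14), *Cd300lb*, an immune receptor gene, from 11.1 and 10.4 CPM to 0.845 and 0.707 CPM (log2 fold change -3.79, SE 0.15) and *Ngef*, an exchange factor for small GTPases, from 64.4 and 59.6 CPM to 5.21 and 5.04 CPM (log2 fold change -3.59, SE 0.066).

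Whether the response depends on the line was tested as the interaction of line and treatment over all 8 libraries, where a positive value means that the log2 fold change was higher in NF1-MET;sgP53 than in NF1-MET. At an adjusted p under 0.05 the response differed in 1407 genes (9.71%), 558 of them above 0 (3.85%) and 849 below (5.86%), and by at least 2-fold in 25 (0.172%) and 44 (0.304%). Each line is a single culture line, so its *Trp53* status cannot be told apart from other differences between the lines. The balance of the directions depends on the scaling, the count filter and single libraries: it became 746 above and 628 below with no low-count filter, 900 above and 643 below when *Gm42418* and the genes like it were dropped, 713 and 509 without capmatinib replicate 2 of NF1-MET;sgP53, and 192 and 123 with library totals.

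Of the 41 functional gene lists, the contractile genes had the largest share of members whose response differed. Of 33 tested, 23 had a smaller rise in NF1-MET;sgP53 and 2 a larger one, counts that became 6 and 1 with library totals and lay between 20 and 24 for the first with any library left out. *Acta2* rose by 3.19 on the log2 scale in NF1-MET;sgP53 and by 4.17 in NF1-MET (difference -0.998, SE 0.021, adjusted p = 1.39e-20). *Cnn1* rose by 4.78 and 6.38 (difference -1.62, SE 0.11, adjusted p = 1.16e-10), and *Tagln* by 2.90 and 4.46 (difference -1.57, SE 0.041, adjusted p = 7.76e-19). These genes thus rose in both lines, and less in NF1-MET;sgP53. Non-collagen matrix genes gave 25 of 55 below 0 and 9 above, or 6 and 5 with library totals. *Ogn* rose by 4.73 and 6.38 (difference -1.67, SE 0.066, adjusted p = 3.68e-15). Among collagens 8 of 29 were below 0 and 1 above (3 and 1 with library totals), and *Col1a1* rose by 2.21 and 2.64 (difference -0.44, SE 0.020, adjusted p = 6.19e-14), a difference that was not called with library totals.

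Replication genes fell further in NF1-MET;sgP53 where a difference was called. Of the 50, 17 were below 0 and none above at an adjusted p under 0.05 in edgeR's test, but the 17 became 0 with library totals, 9 without capmatinib replicate 2 of NF1-MET;sgP53 and 9 without vehicle replicate 1 of NF1-MET. *Rrm2* fell by 1.12 on the log2 scale in NF1-MET;sgP53, against a log2 fold change of -0.89 in NF1-MET (difference -0.24, SE 0.043, adjusted p = 3.99e-04), a difference that was not called with library totals. In mitosis, where 1 of 59 was above and 1 below, and in ribosome biogenesis, with 0 and 2 of 60, shares were under those of all genes. Glycolysis and lactate transport gave 10 of 38 above and 2 below, and 0 and 0 with library totals.

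Among single genes, *Osmr*, the oncostatin M receptor, had the largest called difference below 0 where the average of at least 1 of the 4 groups reached 10 CPM, with a rise of 2.34 in NF1-MET;sgP53 and 4.25 in NF1-MET (difference -1.92, SE 0.072, adjusted p = 1.29e-15). In NF1-MET;sgP53 it was at 25.4 and 26.1 CPM with vehicle and 131 and 131 CPM with capmatinib. *Ptx3* rose by 3.89 and 5.68 (difference -1.80, SE 0.091, adjusted p = 3.67e-13). In the other direction, *Trp53inp1*, a p53 target gene that promotes apoptosis and autophagy, rose by 2.82 in NF1-MET;sgP53, from 2.897 and 3.196 CPM to 22.2 and 21.2 CPM, and by 1.38 in NF1-MET (difference 1.43, SE 0.12, adjusted p = 5.29e-09). *Serping1*, the C1 inhibitor of complement, rose by 3.17 and 2.11 (difference 1.04, SE 0.22, adjusted p = 0.00261). *Aoc3* had the largest called difference above 0 under the same limit (log2 fold changes 6.58 and 4.32, difference 2.23, SE 0.68, adjusted p = 0.0378), but it was nearly absent with vehicle in both lines and lost the call without any of 5 libraries, where the difference ran from 1.455 to 2.543. *Nppb*, a natriuretic peptide gene, fell less deeply in NF1-MET;sgP53, with log2 fold changes of -2.10 and -3.21 (difference 1.09, SE 0.18, adjusted p = 1.35e-04). *Hgf* had log2 fold changes of -0.35 and -1.01 (difference 0.64, SE 0.072, adjusted p = 7.44e-07), and *Met* of -0.47 and -0.64 (difference 0.16, SE 0.036, adjusted p = 0.00565), the latter not called with library totals or without NF1-MET vehicle replicate 2. The differences of *Sh3kbp1* (0.13, SE 0.040, adjusted p = 0.0313), *Cblb* (0.19, SE 0.063, adjusted p = 0.0644) and *Prkce* (0.03, SE 0.11, adjusted p = 0.915) were small, and only the first was called, a call that was lost with library totals and without each of 4 libraries in turn.

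**Figure D5:**
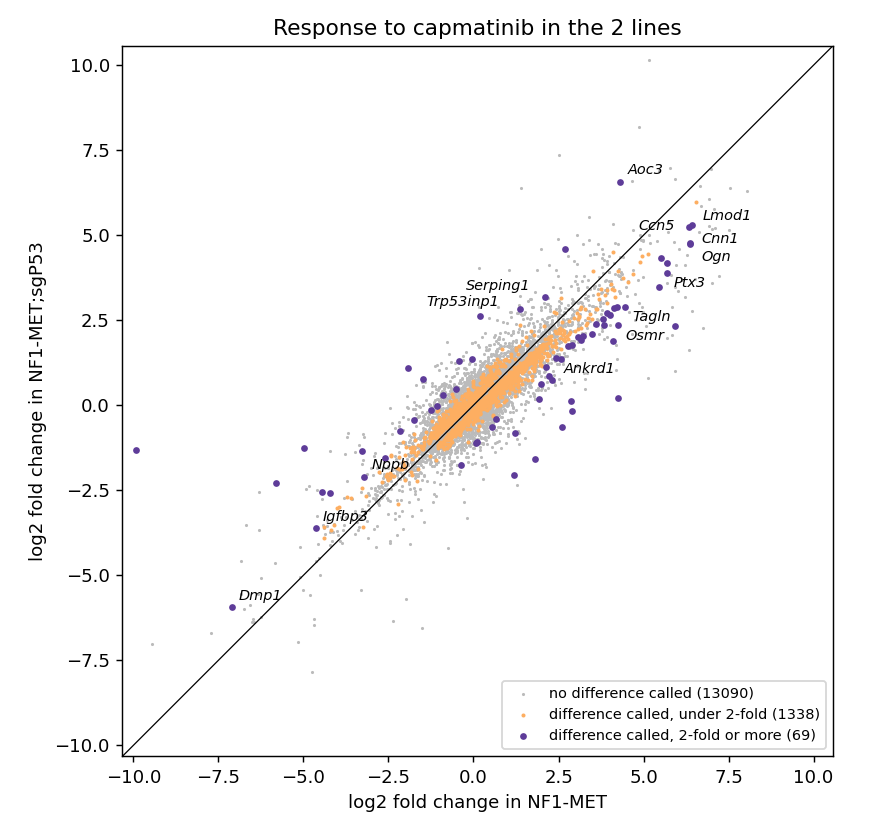
Log2 fold change with capmatinib in NF1-MET;sgP53 against that in NF1-MET for the 14497 genes, with genes whose response differed between the lines in orange (under 2-fold) and purple (at least 2-fold) and the line of equal response in black. Named genes below the line and to the right, such as *Cnn1*, *Tagln* and *Osmr*, rose less in NF1-MET;sgP53, and *Aoc3*, *Trp53inp1* and *Serping1* above the line rose more.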

How the data were processed

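RNA was extracted from cells in 6-well plates with a column kit and DNase, and poly(A) libraries were sequenced as 50 bp paired-end reads. According to the study's methods and the submitters' processing notes, the authors trimmed reads with Trim Galore 0.4.2, checked them with FastQC 0.11.7 and mapped them with STAR 2.5.2b to mm10, and the deposited values are raw read counts per gene, neither normalized nor filtered. The annotation release and strand setting are not given in the sources used here. Total counts of the 4 NF1-MET;sgP53 libraries were 32943928 and 38842903 (vehicle) and 37690321 and 35107670 (capmatinib), so 1 CPM stands for 32.9 to 38.8 counts before TMM scaling, and floors for low counts cover counting error only.

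Counts were analysed in R 4.3.3 with edgeR 4.0.16. Genes reaching 10 counts in 2 or more of 8 libraries, and above 0 in 2 of those fitted, were tested. TMM factors and the quasi-likelihood F-test were used, Benjamini-Hochberg adjusted over 14497 genes at 0.05, as the study's methods describe. The methods remove genes under 10 counts in 2 or more samples. Read literally, this is the stricter filter among the alternatives, with 12802 genes tested. Standard errors were derived from the fold change and the F statistic. No replicate block was used. DESeq2 1.42.0, other scalings, filters and leave-one-out fits were alternatives. The members and gene lists were chosen with earlier results of these data known, and no set test was run, so list counts and medians are descriptions beside the shares of all genes. Named genes are the key members of each list, the largest rise and fall per list, the 15 largest rises and falls overall (at least 10 CPM in the higher group, no overlap) and the 5 largest line differences each way, plus *Trp53*, *Met* and *Gm42418*. Some genes that this rule names are not reported here. Marker genes, *Map3k7cl*, *Ccdc85b*, *Pcsk7*, *Gm48529*, *Ap3m1*, *Nefm*, *Etv1*, *Krt7*, *Chaf1b* and the genes with a CArG box are named outside it, by other rules or after their values were seen. Exon overlaps came from GENCODE M21 (mm10) and promoters from RefSeq. The fits were tested on simulated counts.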

Additional observations from a re-analysis of the deposited data

Results flagged for a closer look

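For 14 named genes the response to capmatinib differed between the lines by at least 1 on the log2 scale at an adjusted p under 0.05 in edgeR's test of the interaction. A rise was smaller in NF1-MET;sgP53 for 8 of them. The difference was -1.92 (log2 fold change 2.34 in NF1-MET;sgP53 and 4.25 in NF1-MET) for *Osmr*, -1.80 (log2 fold change 3.89 in NF1-MET;sgP53 and 5.68 in NF1-MET) for *Ptx3* and -1.67 (log2 fold change 4.73 in NF1-MET;sgP53 and 6.38 in NF1-MET) for *Ogn*. Among contractile genes it was -1.62 (log2 fold change 4.78 in NF1-MET;sgP53 and 6.38 in NF1-MET) for *Cnn1*, -1.57 (log2 fold change 2.90 in NF1-MET;sgP53 and 4.46 in NF1-MET) for *Tagln* and -1.13 (log2 fold change 5.30 in NF1-MET;sgP53 and 6.41 in NF1-MET) for *Lmod1*. For the matricellular gene *Ccn5* it was -1.09 (log2 fold change 5.25 in NF1-MET;sgP53 and 6.33 in NF1-MET) and for the YAP target *Ankrd1* -1.07 (log2 fold change 1.39 in NF1-MET;sgP53 and 2.43 in NF1-MET). A fall was smaller in NF1-MET;sgP53 for 3 genes, with a difference of 1.03 (log2 fold change -3.60 in NF1-MET;sgP53 and -4.64 in NF1-MET) for *Igfbp3*, 1.09 (log2 fold change -2.10 in NF1-MET;sgP53 and -3.21 in NF1-MET) for *Nppb* and 1.17 (log2 fold change -5.93 in NF1-MET;sgP53 and -7.11 in NF1-MET) for *Dmp1*. A rise was larger for 3 genes, with a difference of 1.43 (log2 fold change 2.82 in NF1-MET;sgP53 and 1.38 in NF1-MET) for *Trp53inp1*, 1.04 (log2 fold change 3.17 in NF1-MET;sgP53 and 2.11 in NF1-MET) for *Serping1* and 2.23 (log2 fold change 6.58 in NF1-MET;sgP53 and 4.32 in NF1-MET) for *Aoc3*. Of the 14, *Aoc3* alone lost the call in any alternative, without each of 5 libraries in turn. The share of *Gm42418* was between 1.11% and 10.0% in the libraries of NF1-MET;sgP53 and between 5.29% and 13.1% in those of NF1-MET, and its part in these differences was tested only by leaving it out, under which all 14 kept their call.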

How the results depend on the processing

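The counts of genes that rose and fell with capmatinib stayed within 1.5 times of 4963 and 4841 under DESeq2's Wald test, its size factors in edgeR, the bias-adjusted form of edgeR's test, both other filters, all 8 libraries in 1 model, the omission of *Gm42418* and 5 similar genes, and the fits that each left out 1 library (4539 to 4735 higher, 4469 to 4598 lower, where the lone sample is assumed to vary like the others). The exception was library totals in place of TMM factors, with 3260 higher and 4933 lower, since this scaling shifts all genes. The interaction counts of 558 above and 849 below 0 were less stable: 192 and 123 with library totals, 900 and 643 without the *Gm42418* set, 746 and 628 with no low-count filter, 433 and 461 with DESeq2's Wald test (29 at least 2-fold below 0, against 44), and 377 to 713 above and 509 to 738 below with 1 library left out, the 713 and 509 being without capmatinib replicate 2 of NF1-MET;sgP53. The cause was not tested. The labels give replicate numbers 1 and 2 but name no shared batch, and with 2 pairs the numbers were not taken to pair the samples. Deviations of same-numbered samples correlated at r = 0.39 over 8728 genes. With the replicate number as a block 5006 genes were higher and 4860 lower, and the interaction gave 562 and 841. Of 210 results for single genes, 187 kept their direction and their side of the threshold in all alternatives run.

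No called response of the 178 called genes named changed direction. Those not called that did were *Erbb3* (-0.90 to 0.21), *Mmp9* (-0.44 to 0.13), *Slc2a1* (-0.034 to 0.0044) and *Gm42418* (-2.285 to 1.036) over the fits that each left out 1 NF1-MET;sgP53 library, the last also with the replicate block (-0.46). The difference between the lines for *Prkce*, also not called, ran from -0.070 to 0.15 over the fits that each left out 1 of 8 libraries. With library totals *Cblb*, *Cdkn2b*, *Hspa5*, *Lamp1*, *Mcl1*, *Runx2* and *Taf1b* lost their call for the response, and *Met*, *Col1a1*, *Rrm2* and *Sh3kbp1* for the difference between the lines. The difference for *Sh3kbp1* (0.13) was 0.12, 0.11, 0.14 and 0.11 without NF1-MET capmatinib replicate 2, NF1-MET vehicle replicate 1, NF1-MET;sgP53 capmatinib replicate 1 and vehicle replicate 1, and was then not called. That of *Met* (0.16) was 0.13 and not called without NF1-MET vehicle replicate 2, and that of *Cblb* (0.19) was called in 4 alternatives, among them 0.25 without NF1-MET;sgP53 capmatinib replicate 2. The response of *Hoxd8* was not called by DESeq2's test (-0.16) or without capmatinib replicate 1 or vehicle replicate 2 (both -0.12), that of *Mcl1* without vehicle replicate 1 (-0.082) and that of *Pdgfa* without capmatinib replicate 1 (-0.11), while *Cd68* and *Csf1r* lost their call with DESeq2's test and without capmatinib replicate 2 or vehicle replicate 2 (*Csf1r* at 0.66 without the latter), *Cd68* also without capmatinib replicate 1 and with no low-count filter, and *Pparg* was called without vehicle replicate 1 (1.65). List medians changed sign with library totals for MET adaptors (-0.083), CDK inhibitors (-0.11), p53 targets (-0.11) and glycolysis (-0.0029), and with the stricter filter for mineralisation (0.39 to -0.28), adipocyte (0.81 to -0.0065) and keratin and neural genes (0.23), the last also without capmatinib replicate 1 (0.095), and for CDK inhibitors without vehicle replicate 2 (-0.033).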

Other observations

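By the gene types of GENCODE M21, protein-coding genes made up 12320 of the genes tested, with 4647 that rose with capmatinib (37.7%) and 4552 that fell (36.9%) in NF1-MET;sgP53 cells, where the shares over all genes tested were 34.2% and 33.4%. Of 348 antisense genes 75 rose (21.6%) and 32 fell (9.2%), and without a stated strand setting their reads cannot be told apart from those of the genes they lie opposite. Of 296 intergenic long non-coding genes 65 rose (22%) and 54 fell (18.2%). Of 736 processed pseudogenes 30 rose (4.08%) and 111 fell (15.1%), and reads of these can come from the parent gene.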
